A study of Mus musculus with 4 samples.

Results

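The G2 and mitosis genes are 50 genes whose messenger RNAs build up as a cell prepares to divide and while it divides. They were taken by symbol from a fixed list that was chosen with earlier results of these data known. Counts set beside the share over all genes therefore describe these genes and give no independent support. The genes are also read from the same cells and mice, so a count of members is not a count of replicates. All 50 were measured, among 17992 genes in malignant cells and 16349 genes in non-malignant cells. The cells came from a mouse sarcoma allograft grown in the hind limb, with the genotype KrasLSL-G12D/+;Trp53flox/flox on the 129/SvJae strain background, and every tumor of both groups carried these alleles. The malignant cells thus descend from transplanted tumor, whereas the immune and stromal cells may be host cells. Vehicle mice received PBS by intraperitoneal injection. Digoxin mice received 2 mg/kg of digoxin, a cardiac glycoside that blocks the sodium pump, which had been dissolved in DMSO and then brought into PBS. Both were injected every 24 h, and tumors were taken after dose number 4. There were 2 mice in each group, and the ages of the mice, and whether the vehicle held DMSO, are not given in the sources used here. The comparison asked whether messenger RNAs of G2 and mitosis differed between digoxin and vehicle mice in each kind of cell, and whether that difference was another one in T cells than in malignant cells.

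A dividing cell enters mitosis when the kinase Cdk1, bound to a B-type cyclin, becomes active. Chromosomes then condense, attach to the spindle through kinetochores under the watch of the spindle checkpoint, and separate once Cdc20 and Ube2c direct the anaphase-promoting complex to destroy the cyclins and securin. Many of the genes that encode this machinery are held silent in resting cells by the DREAM complex and switched on late in the cell cycle by MuvB with the factors B-Myb and FoxM1, often through a cell cycle homology region and CCAAT boxes close to the start site. T cells proliferate in a tumor when they are stimulated, so these messenger RNAs mark both dividing tumor cells and dividing lymphocytes.

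Transcripts were counted from their 3′ ends with unique molecular identifiers (UMIs), so that longer genes do not gain counts. A level is the mean over the cells of 1 mouse of a gene's UMIs scaled to 1000000 UMIs in the cell, written CPM, and values are given in the order of replicates 1 and 2. The malignant cells numbered 3976 to 6269 per mouse with a median of 46799 to 57658 UMIs per cell. T cells were far fewer and shallower, with 110 to 183 cells per mouse and a median of 7244 to 8231.5 UMIs. In T cells the 50 genes together rest on 10362 and 5299 UMIs with vehicle and on 4675 and 4410 UMIs with digoxin. A pair of libraries shared 14 to 25 cell barcodes of the 7233 to 7555 in the smaller library, and 0 cells were in both tables. Each of 11 T cell marker genes was detected in the T cells of every mouse, and these genes summed to between 4762 and 5527 CPM against at most 6.29 CPM in malignant cells. The label did not hold for every cell: in an unnamed group that made up 4.37% to 8.40% of the T cells, T cell markers summed to between 0 and 90.2 CPM, while 5 dendritic cell markers summed to between 459 and 829 CPM.

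The library of vehicle replicate 2 stood apart from the other 3. Its T cells held 0 CPM of Xist and 100.4 CPM of the Y-linked Ddx3y, whereas the T cells of the other mice held between 1006 and 1288 CPM of Xist and at most 3.49 CPM of Ddx3y. NK cells and macrophages showed the same, with 0 and 0.161 CPM of Xist and 65.1 and 87.7 CPM of Ddx3y in this mouse. By these genes its immune cells were male and those of the other 3 mice female, so that sex split the vehicle group. Regulatory T cells (Treg) made up 59.1% of its T cells, against 19.1% in vehicle replicate 1 and 25.8% and 26.7% in the digoxin mice. Messenger RNAs of 8 macrophage markers, all outside the list, summed to 906 and 2958 CPM in the T cells of the vehicle mice and to 1691 and 1959 CPM in those of the digoxin mice. In T cells 5 neutrophil markers summed to 6.50 and 18.1 CPM with vehicle and to 39.1 and 127 CPM with digoxin, which separates the groups. The part of these differences in the results was not tested, and values without this mouse stand beside the tests of T cells, malignant cells, macrophages, Epithelial cells and fibroblasts.

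Stretches of the promoters of 8 members are shown because their motifs are shared by most of the genes. The sequences are the 120 bases before the annotated start site, read 5′ to 3′ on the gene's own strand from RefSeq (build GRCm38.p6). Capitals mark the letters TTTGAA or TTCGAA of the cell cycle homology region and the CCAAT box, either as such or as TTCAAA and ATTGG where the motif lies on the other strand. Mki67 lies at chr7:135716380-135716499 (minus strand), Top2a at chr11:99024190-99024309 (minus), Hmgb2 at chr8:57511723-57511842 (plus), Cdk1 at chr10:69352913-69353032 (minus), Ccnb1 at chr13:100786487-100786606 (minus), Ccnb2 at chr9:70421555-70421674 (minus), Cdc20 at chr4:118437344-118437463 (minus) and Ube2c at chr2:164769809-164769928 (plus).
Mki67: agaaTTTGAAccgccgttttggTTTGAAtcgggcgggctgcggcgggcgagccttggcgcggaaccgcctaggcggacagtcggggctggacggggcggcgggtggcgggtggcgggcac
Top2a: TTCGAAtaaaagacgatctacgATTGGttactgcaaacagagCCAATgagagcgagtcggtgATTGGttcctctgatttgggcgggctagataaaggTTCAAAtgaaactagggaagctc
Hmgb2: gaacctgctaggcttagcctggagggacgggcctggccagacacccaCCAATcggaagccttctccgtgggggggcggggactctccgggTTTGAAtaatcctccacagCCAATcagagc
Cdk1: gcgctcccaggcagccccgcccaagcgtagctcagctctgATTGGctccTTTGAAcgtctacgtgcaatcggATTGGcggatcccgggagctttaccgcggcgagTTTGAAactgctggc
Ccnb1: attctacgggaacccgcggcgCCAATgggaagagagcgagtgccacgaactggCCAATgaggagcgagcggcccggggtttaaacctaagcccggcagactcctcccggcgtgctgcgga
Ccnb2: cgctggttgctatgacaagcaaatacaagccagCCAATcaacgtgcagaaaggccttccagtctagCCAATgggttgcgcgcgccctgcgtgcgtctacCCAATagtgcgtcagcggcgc
Cdc20: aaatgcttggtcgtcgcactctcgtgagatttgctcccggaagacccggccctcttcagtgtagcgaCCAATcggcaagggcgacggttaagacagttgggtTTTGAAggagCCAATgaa
Ube2c: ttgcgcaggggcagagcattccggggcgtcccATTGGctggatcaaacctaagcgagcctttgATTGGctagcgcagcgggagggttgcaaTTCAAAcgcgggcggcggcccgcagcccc

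RefSeq windows of 300 bases, from 250 before the start to 50 after it, were matched for 42 of the 50 members and for 27025 genes in all, and a gene with more than 1 window, as 4 members had, counts once. TTTGAA was present on either strand in 31 of the 42 members (73.8%), against 20.2% of all genes. TTCGAA, which reads the same on both strands, was present in 4 (9.52% against 1.80%), and one or the other in 33 (78.6% against 21.7%). A CCAAT box was present in 33 (78.6% against 41.1%), and at least 2 boxes in 24 (57.1% against 13.3%). Both kinds of motif stood together in 29 of the 42 members (69.0%), against 8.61% of all genes. Of 83 distinct CCAAT boxes in the members' windows, 55 lay within 100 bases before a start, as in the stretches of Top2a and Ccnb2. Of 46 sites of the cell cycle homology region, 14 lay there. Positions over all genes were not counted. The E2F motifs TTTCCCGC and TTTGGCGC were in 0 of the 42 members, against 1.24% and 0.585% of all genes. Both kinds of motif stood in 14 of 18 members with a window that were lower in T cells at an unadjusted p of 0.05, and in 14 of 22 of the other members tested there. These matches describe letters in a window and not binding. The stretches printed for Ccnb1 and Ccnb2 hold CCAAT boxes only, whereas that of Mki67 holds TTTGAA in 2 places and no CCAAT. Outside the printed stretches, the windows of 300 bases also hold TTTGAA for Ccnb2 and CCAAT for Mki67.

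In T cells the G2 and mitosis genes were lower in the digoxin mice, but 0 of them passed the threshold. Their summed level was 3838 and 3531 CPM in the vehicle mice and 2336 and 2616 CPM in the digoxin mice, and the groups did not overlap. All 50 had a lower mean in the digoxin mice, and for 38 of the 50 both digoxin mice were below both vehicle mice. None of the 50 had both digoxin mice above both vehicle mice. Of the 47 that passed the filter on low counts, 37 had both digoxin mice lower (78.7%), which held for 19% of the 8930 genes tested. The median log2 difference over these 47 was −0.63, beside −0.02 over all genes, and single members ran from −1.77 for Plk1 to −0.02 for Ckap5. The filter can be passed through the higher group alone, as Plk1 did through the vehicle mice, so its difference is no support.

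The test was limma on log2(CPM + 1) over the 4 mice, with Benjamini-Hochberg adjustment over all 8930 genes, and a fold change on this scale understates the change of low genes. It called 0 members at an adjusted p of 0.05, and the lowest adjusted p was 0.596. At an unadjusted p of 0.05, 20 members were lower (42.6%) against 2.28% of all genes, and 0 were higher against 1.99%. On the recovered UMIs, edgeR, DESeq2 and limma-voom also called 0 members at the adjusted threshold. At the unadjusted one 27, 17 and 28 members were lower. Of the 8930 genes, 409, 89 and 422 passed it by these tools in either direction. Without vehicle replicate 1, limma called 198 genes (2.17%), with Ccnb2, Hmgb2 and Mki67 among the members. Without vehicle replicate 2 it called 75 genes (0.776%), with Cenpf, Hmgb2, Mki67 and Ube2c. The lone vehicle mouse is then assumed to vary like the digoxin mice.

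**Figure D1:**
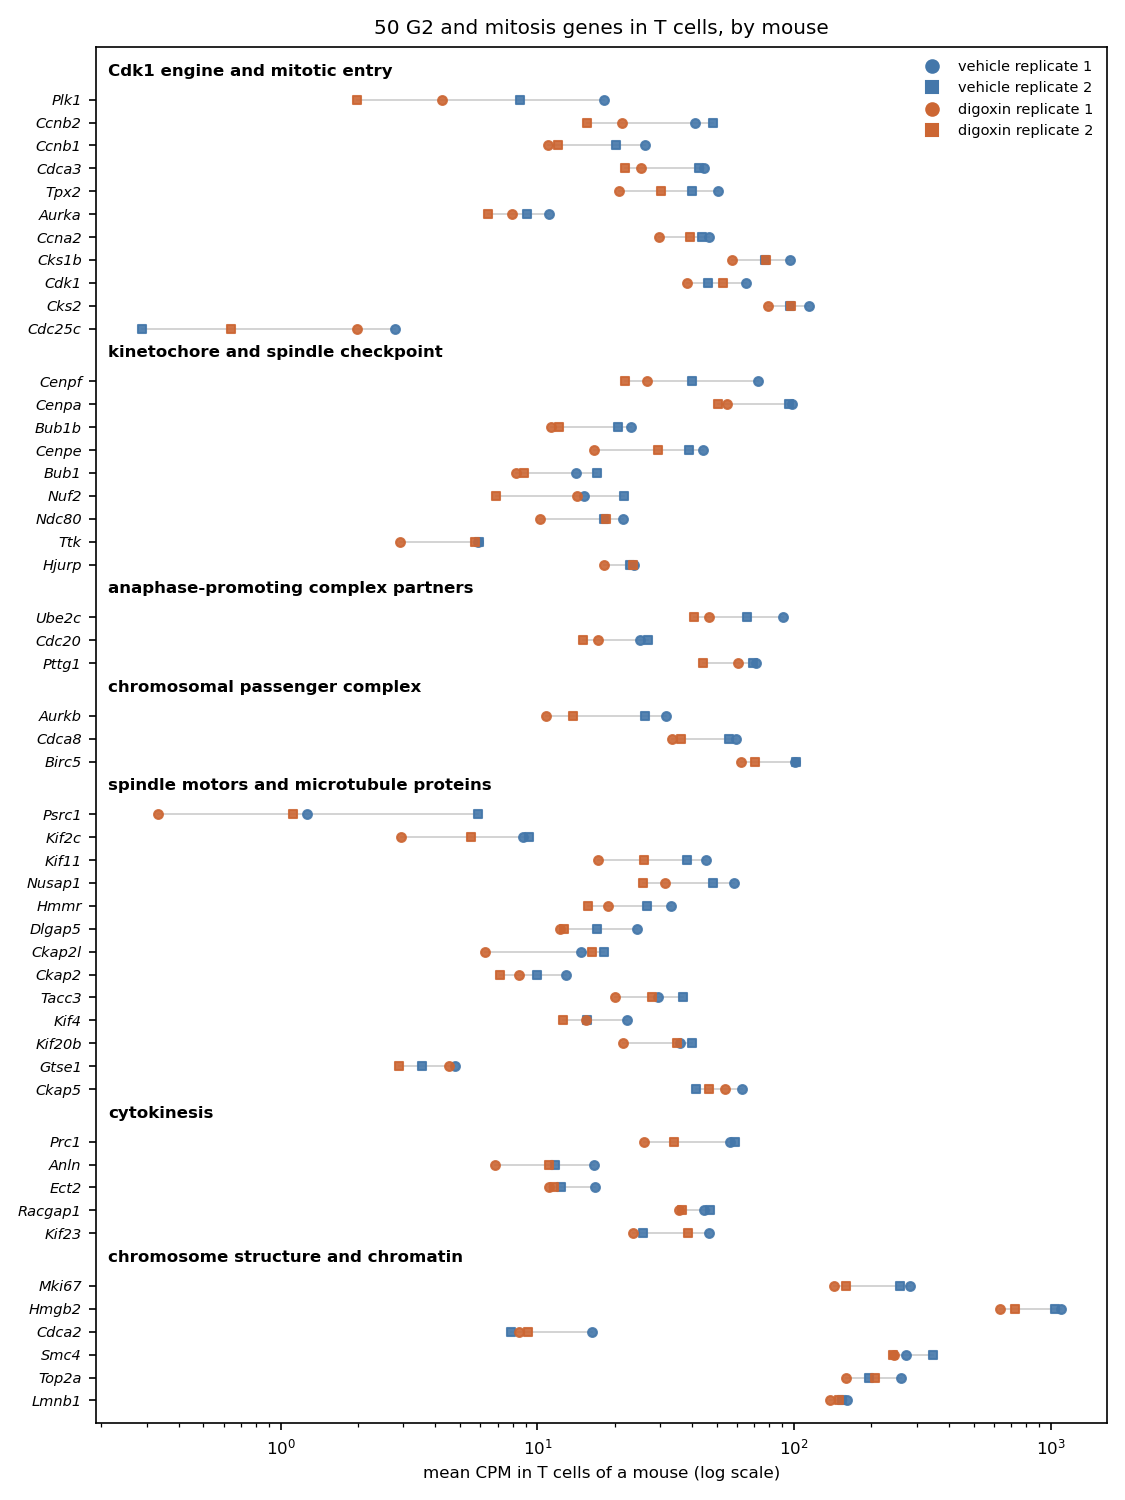
Level of each of the 50 genes in T cells, 1 point per mouse, as mean CPM over the T cells of that mouse on a log axis, grouped by role and ordered within a role by the size of the difference. Digoxin points lie to the left of both vehicle points for 38 genes, and the groups overlap for 12, among them Cdk1, Top2a and Ckap5.

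Among the genes of the Cdk1 engine and of mitotic entry, 10 of 11 were tested, 5 were lower at an unadjusted p of 0.05 against 2.28% of genes, and the median log2 difference was −0.63. Ccnb1 and Ccnb2 encode the B-type cyclins that activate Cdk1. Ccnb2 stood at 41.0 and 48.2 CPM in the vehicle mice and at 21.4 and 15.6 CPM in the digoxin mice, which is −1.24 on the log2 scale, digoxin minus vehicle (SE 0.27, limma adjusted p 0.73). Ccnb1 stood at 26.2 and 20.2 CPM and at 11.01 and 11.98 CPM (−0.94, SE 0.31, limma adjusted p 0.979). Both cyclins were thus separated between the groups.

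Their partner Cdk1 was not. Cdk1 stood at 65.2 and 46.4 CPM in the vehicle mice and at 38.4 and 52.8 CPM in the digoxin mice (−0.28, SE 0.26), so that the groups overlapped. Cks1b and Cks2, small subunits that bind the kinase, overlapped too. Cks1b stood at 96.8 and 77.3 CPM with vehicle and at 57.4 and 78.0 CPM with digoxin, and Cks2 at 114 and 96.2 CPM and at 78.9 and 97.2 CPM. Plk1, a kinase that acts on Cdk1's activators and on the spindle, had the lowest log2 difference of the members tested, and it is named here after its values were seen. Its levels were 18.1 and 8.52 CPM with vehicle and 4.25 and 1.98 CPM with digoxin (−1.77, SE 0.56, limma adjusted p 0.979), but these rest on 54, 18, 10 and 6 UMIs. Cdc25c, the phosphatase that switches Cdk1 on, was too low to be tested, at 2.79 and 0.289 CPM with vehicle and 1.98 and 0.641 CPM with digoxin.

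All 9 kinetochore and spindle checkpoint genes were tested, and 4 were lower at an unadjusted p of 0.05 against 2.28% of genes, with a median of −0.81. Cenpa, the histone variant that marks centromeres, stood at 97.7 and 95.6 CPM in the vehicle mice and at 54.9 and 50.4 CPM in the digoxin mice (−0.86, SE 0.19, limma adjusted p 0.73). Cenpe, a kinetochore motor, stood at 44.2 and 39.1 CPM and at 16.6 and 29.5 CPM (−0.88, SE 0.30). Each gene was separated between the groups. Cenpf, a large kinetochore protein named here after its values were seen, stood at 72.2 and 40.0 CPM with vehicle and at 26.6 and 22.02 CPM with digoxin (−1.12, SE 0.30). Ndc80, which holds microtubule ends, and Hjurp, the chaperone that loads Cenpa, overlapped between the groups.

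The 3 partners and targets of the anaphase-promoting complex were all lower in both digoxin mice, as were 19% of all genes tested. Ube2c, the enzyme that starts ubiquitin chains for the complex, stood at 90.9 and 65.3 CPM with vehicle and at 46.7 and 40.6 CPM with digoxin (−0.81, SE 0.23, limma adjusted p 0.979). Cdc20, its activator, stood at 25.1 and 26.9 CPM and at 17.2 and 15.1 CPM (−0.66, SE 0.28). Pttg1 encodes securin, the inhibitor of chromosome separation, and stood at 71.2 and 68.9 CPM and at 60.7 and 44.3 CPM (−0.43, SE 0.22), which is the smallest log2 difference of the 3 and the one above an unadjusted p of 0.05.

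The chromosomal passenger complex corrects wrong attachments of chromosomes, and its 3 members were all lower at an unadjusted p of 0.05, against 2.28% of genes. Birc5, known as survivin, stood at 101 and 101.6 CPM with vehicle and at 62.4 and 70.5 CPM with digoxin (−0.60, SE 0.19, limma adjusted p 0.979). Cdca8, known as borealin, stood at 59.1 and 55.5 CPM and at 33.5 and 36.1 CPM (−0.71, SE 0.22). Aurkb, the kinase of the complex, is named after its values were seen and stood at 31.7 and 26.1 CPM and at 10.8 and 13.7 CPM (−1.18, SE 0.30, limma adjusted p 0.872). Each of the 3 separated the groups.

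Of 13 spindle motors and microtubule proteins, 11 were tested, 3 were lower at an unadjusted p of 0.05 against 2.28% of genes, and the median was −0.63. Kif11, the motor that pushes the spindle poles apart, stood at 45.5 and 38.3 CPM with vehicle and at 17.3 and 26.0 CPM with digoxin (−0.95, SE 0.28, limma adjusted p 0.979). Hmmr, a spindle assembly factor, stood at 33.1 and 26.6 CPM and at 18.8 and 15.8 CPM (−0.75, SE 0.28), and both genes separated the groups. Ckap5, a microtubule polymerase, had the smallest log2 difference of all members tested. It stood at 62.4 and 41.5 CPM with vehicle and at 54.0 and 46.7 CPM with digoxin (−0.02), and the groups overlapped. The remaining members of this role that were tested lay between the log2 differences of Ckap5 and of Kif2c (−0.98), a microtubule depolymerase. Gtse1 and Psrc1 were too low for the test.

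Cytokinesis genes pinch the daughter cells apart, and 4 of the 5 had both digoxin mice below both vehicle mice, against 19% of genes. Prc1, which bundles the midzone of the spindle, stood at 56.1 and 59.1 CPM with vehicle and at 26.0 and 34.1 CPM with digoxin (−0.93, SE 0.24, limma adjusted p 0.872). Prc1 was the one member of this role that was lower at an unadjusted p of 0.05, against 2.28% of genes. Racgap1, a regulator of the cleavage furrow, stood at 44.4 and 47.0 CPM and at 35.7 and 36.6 CPM (−0.33). Anln, a scaffold of the contractile ring, stood at 16.6 and 11.7 CPM and at 6.80 and 11.1 CPM (−0.62). Kif23, a motor of the midzone, overlapped between the groups.

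Chromosome structure and chromatin genes held the members with the most UMIs. Hmgb2, a chromatin protein that bends DNA, stood at 1097 and 1041 CPM in the vehicle mice and at 635 and 726 CPM in the digoxin mice (−0.65, SE 0.12, limma adjusted p 0.596). Mki67 encodes the Ki-67 antigen that coats mitotic chromosomes, and it stood at 282 and 259 CPM and at 143 and 159.8 CPM (−0.83, SE 0.15, limma adjusted p 0.596). These 2 genes were the 2 of the 6 in this role that were lower at an unadjusted p of 0.05, against 2.28% of genes.

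The other chromatin members differed less or overlapped. Top2a, the topoisomerase that untangles sister chromosomes, stood at 261 and 196 CPM with vehicle and at 159 and 207 CPM with digoxin (−0.32, SE 0.19), with overlap. Smc4, a condensin subunit, stood at 273 and 348 CPM and at 245.5 and 242 CPM (−0.34, SE 0.16). Lmnb1, a protein of the nuclear lamina, stood at 160 and 154 CPM and at 138 and 149.8 CPM (−0.13). Both Smc4 and Lmnb1 kept the groups apart, by less than Hmgb2 and Mki67 on the log2 scale.

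In malignant cells the same genes were not lower with digoxin, and 0 of the 50 separated the groups in either direction. This held although 16.5% of the 17138 genes tested had both digoxin mice lower and 12.8% had both higher. The summed level was 3308 and 2357 CPM in the vehicle mice and 2837 and 3414 CPM in the digoxin mice. limma gave a log2 difference above 0 for 48 of the 50 and a median of 0.17, beside −0.01 over all genes. It called 0 members at the adjusted threshold and 0 at an unadjusted p of 0.05, where the background was 1.77% lower and 1.65% higher. edgeR, DESeq2 and limma-voom also called 0 members, and over all genes they called 0, 44 and 0.

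Vehicle replicate 2 had the lowest level of the 4 mice for 50 of the 50 genes in malignant cells. Mki67 stood at 64.8 and 42.8 CPM with vehicle and at 55.6 and 66.5 CPM with digoxin (0.20, SE 0.20). Top2a stood at 194 and 129 CPM and at 168 and 208 CPM (0.24). Hmgb2 stood at 387 and 290.3 CPM and at 345 and 415 CPM (0.17, SE 0.16). In each case vehicle replicate 1 lay between the digoxin mice. Without vehicle replicate 2 the sign turned, and 46 of the 50 were below 0, against 54.5% of genes, with a median of −0.10 and 0 lower at an unadjusted p of 0.05, against 3.03% of genes. Without vehicle replicate 1 the median was 0.45 and 38 members were higher at an unadjusted p of 0.05, against 4.03% of genes.

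The 5 members with the smallest p in malignant cells were Anln, Prc1, Kif11, Cenpa and Lmnb1. Anln stood at 58.5 and 38.3 CPM with vehicle and at 53.8 and 65.9 CPM with digoxin (0.32, SE 0.21). Prc1 stood at 64.1 and 44.5 CPM and at 56.3 and 73.3 CPM (0.26), and Kif11 at 31.6 and 19.8 CPM and at 27.6 and 33.7 CPM (0.28). Each overlapped between the groups. Cenpa stood at 86.0 and 70.6 CPM and at 79.8 and 95.3 CPM (0.16), and Lmnb1 at 44.7 and 32.8 CPM and at 41.9 and 48.2 CPM (0.22). Cdk1 stood at 111 and 75.5 CPM and at 91.3 and 114 CPM, and Ccnb1 at 37.3 and 26.4 CPM and at 32.3 and 42.9 CPM.

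The difference in T cells minus that in malignant cells was tested in 1 limma fit with the mouse as a block, over 8892 genes. It was below 0 for all 47 members tested, beside 52.9% of all genes, and its median over them was −0.81. At an unadjusted p of 0.05, 28 members were lower in T cells relative to malignant cells (59.6%), against 2.55% of all genes. limma called 0 members after adjustment, with a lowest adjusted p of 0.851. edgeR and limma-voom called 0 members, with 35 and 31 lower at the unadjusted threshold. Of the 8892 genes, 514 and 523 passed it by these tools in either direction. DESeq2 called 5 genes (0.0562%), of which Cenpa and Hmgb2 were members.

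Hmgb2 differed by −0.83 between the populations on the log2 scale (SE 0.14), Mki67 by −1.03 (SE 0.20) and Cenpa by −1.02 (SE 0.21). Cdk1 and Top2a, whose levels overlapped between the groups in T cells, differed by −0.44 (SE 0.18) and −0.55 (SE 0.15). Plk1, which rests on few UMIs in T cells, lay at −1.94 and Ckap5 at −0.10, the ends of the range. Without vehicle replicate 1, limma called 28 genes (0.305%) with Hmgb2 and Mki67 among them. Without vehicle replicate 2 it called 5 genes and 0 members, the median was −0.54, and 19 members were lower at an unadjusted p of 0.05, against 1.75% of genes.

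**Figure D2:**
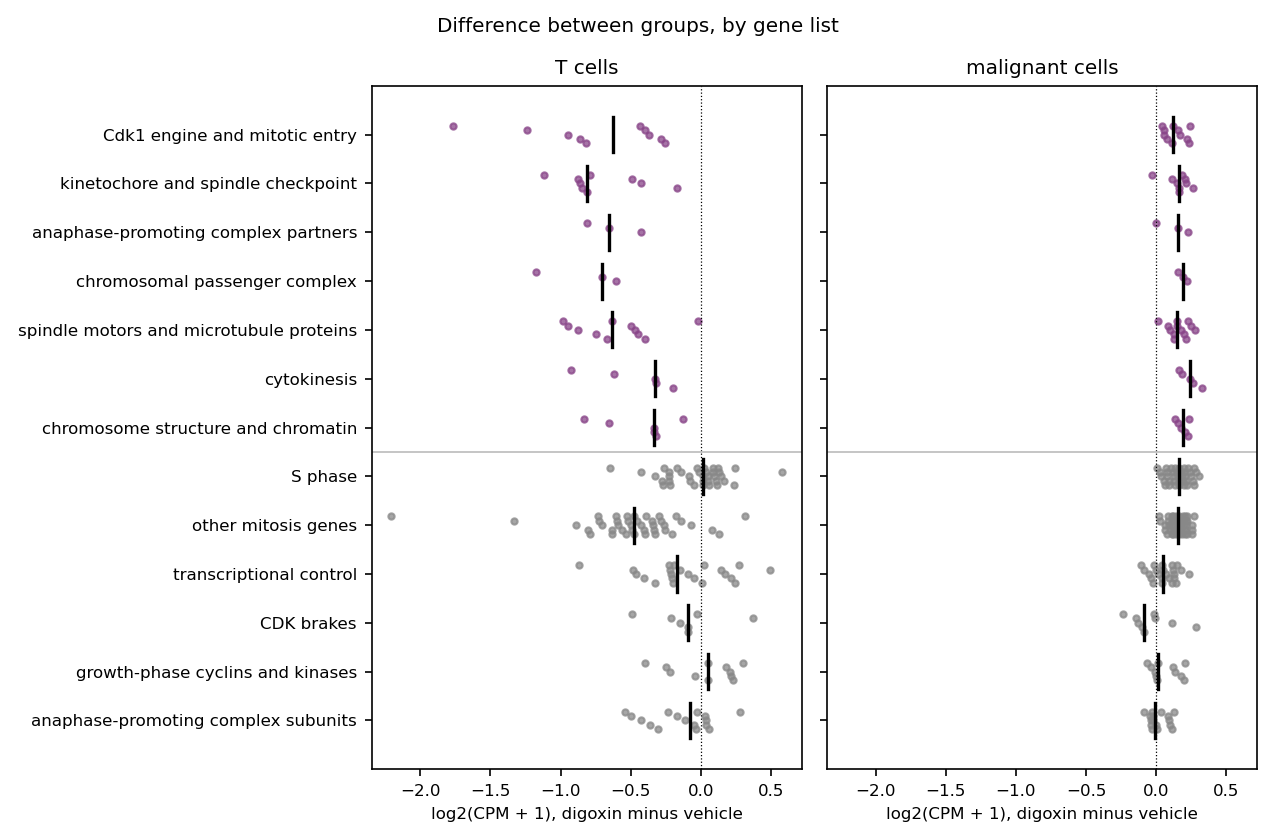
Log2 difference of CPM + 1, digoxin minus vehicle, for each gene tested in T cells (left) and in malignant cells (right), with 1 point per gene and a black bar at the median of each list. Purple points are the 7 roles of the 50 genes and grey points the other cell cycle lists. All role medians are below 0 in T cells and above 0 in malignant cells, while the S phase median in T cells is 0.01.

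Levels in the tables of malignant and non-malignant cells can be set side by side, since the recovered UMIs of a cell summed to its deposited total in both. The summed level of the 50 genes in T cells was 1.16 and 1.498 times that in malignant cells of the same mouse with vehicle. With digoxin it was 0.823 and 0.766 times that level. Without Hmgb2 the vehicle sums were 2742 and 2490 CPM in T cells and 2921 and 2066 CPM in malignant cells. T cells were then below malignant cells in vehicle replicate 1. With vehicle, 16 of the 50 were higher in T cells in both mice and 19 were lower in both. With digoxin, 4 were higher and 40 were lower. The mean ratio was smaller in the digoxin mice for 50 of the 50. These counts are a description, since the shares over all genes were not counted. Vehicle replicate 2 also had the lowest malignant level for 50 of the 50, which raises its ratios.

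Mki67 had the highest mean ratio of T cells to malignant cells with vehicle, at 4.35 and 6.04, and stood at 2.58 and 2.40 with digoxin. Lmnb1 stood at 3.59 and 4.70 with vehicle and, above Mki67, at 3.29 and 3.11 with digoxin. Hmgb2 stood at 2.83 and 3.58 and at 1.84 and 1.75. Among the lowest ratios, Cks1b stood at 0.284 and 0.276 with vehicle and 0.189 and 0.235 with digoxin, and Anln stood at 0.283 and 0.305 and at 0.126 and 0.168. The 2 populations thus differed in which of the 50 genes they held at high level, as well as in the sum.

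The T cells were named by the study as 4 known subsets and an unnamed group of 7 to 11 cells per mouse. There were 35 and 65 Treg with vehicle and 40 and 35 with digoxin, and their summed level of the 50 genes was 4102 and 3185 CPM with vehicle and 2048 and 2916 CPM with digoxin. NKT cells, with 52, 11, 39 and 22 cells, stood at 3777 and 4387 CPM and at 2337 and 1278 CPM. Helper T cells (Th), with 58, 19, 51 and 39 cells, stood at 2327 and 4972 CPM and at 2206 and 1678 CPM. Neither Treg, NKT nor Th overlapped between the groups, although Th came close. CD8 cells, with 30, 8, 16 and 24 cells, stood at 6932 and 4318 CPM and at 3703 and 4599 CPM, with overlap. The 8 macrophage markers summed to 144 and 181 CPM in CD8 cells with vehicle and to 2624 and 1874 CPM with digoxin, and to 339 and 93.7 CPM and to 559.6 and 1322 CPM in NKT cells. In Treg they summed to 3012 and 4192 CPM with vehicle and 3787 and 3988 CPM with digoxin, and in Th to 581 and 2552 CPM and to 824 and 947 CPM. Their part in the subset differences was not tested. The unnamed group stood at 2439 and 581 CPM and at 1918 and 3335 CPM.

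Separation of the groups was counted in each subset over genes with at least 10 UMIs in the 4 mice, a limit chosen after the data were seen. Both digoxin mice were below both vehicle mice for 37 of 45 members in NKT cells, against 17.1% of genes, and for 21 of 47 in CD8 cells, against 18.3%. The counts were 19 of 48 in Treg, against 17.1%, and 15 of 47 in Th, against 18.7%. In the unnamed group 11 of 33 members were higher in both digoxin mice, against 18.8%. In each subset a gene can reach the limit of 10 UMIs through the mice of a single group alone. With cells thinned to equal depth, 3 of the 11 NKT cells of vehicle replicate 2 held 81.6% of its UMIs of the members. In digoxin replicate 2 no NKT cell held more than 7 members. The 37 members lower in NKT cells are thus not 37 separate observations. Mki67 was lower in both digoxin mice in Treg, NKT and CD8 cells. It stood at 395 and 255 CPM with vehicle and 141 and 239 CPM with digoxin in Treg, at 236 and 310 CPM and 148 and 20.1 CPM in NKT cells, and at 636 and 282.5 CPM and 192 and 265 CPM in CD8 cells. In Th it overlapped, at 88.9 and 323 CPM with vehicle and 116.5 and 23.6 CPM with digoxin.

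Because vehicle replicate 2 had more Treg, the subsets were also weighted equally, which was chosen after the data were seen and leaves out the unnamed group. The summed level was then 4284 and 4216 CPM with vehicle and 2573 and 2618 CPM with digoxin. limma called 24 genes (0.277%) on these values, of which 5 were members (Aurkb, Cenpf, Hmgb2, Mki67 and Ube2c), all lower. Equal weights give the 8 CD8 and the 11 NKT cells of vehicle replicate 2 each as much weight as its 65 Treg. At an unadjusted p of 0.05, 27 members were lower, against 3.63% of all genes. Within Treg alone, 35 of 39 members tested were below 0, 8 were lower at an unadjusted p of 0.05 against 1.75% of all genes, and 0 were called.

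A lower mean can come from fewer cells with these messenger RNAs or from fewer molecules in each such cell. To count cells at equal depth, each cell was thinned to 4000 UMIs, which left out at most 1 T cell per mouse. Mki67 was then detected in 30.8% and 38.2% of T cells with vehicle and 21.4% and 20.8% with digoxin (exact two-sided permutation p 0.333, the smallest that 2 mice against 2 allow). Before thinning the shares were 35.5% and 47.3% with vehicle and 27.7% and 25.2% with digoxin. Ccnb1 was detected in 8.24% and 6.36% against 2.60% and 3.08%, and Hmgb2 in 75.8% and 75.5% against 64.3% and 69.2%. These 3 genes separated the groups.

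Top2a was detected in 32.4% and 30% of T cells with vehicle and in 22.7% and 35.4% with digoxin, and Cdk1 in 15.4% and 10.0% and in 10.4% and 16.2%. Cdc20 was detected in 5.49% and 4.55% with vehicle and in 3.90% and 5.38% with digoxin. All of these 3 overlapped between the groups. In malignant cells Mki67 was detected in 16.4% and 11.9% with vehicle and in 14.4% and 17.5% with digoxin, and Top2a in 31.2% and 22.9% and in 27.5% and 32.9%. The cells that the study named Microglia were taken for comparison as cells with few of these messenger RNAs. They held a mean of 2449 CPM of Siglech, 591 CPM of Ccr9 and 1900 CPM of Tcf4, genes of plasmacytoid dendritic cells, against 22.7 CPM of P2ry12 and 1.43 CPM of Tmem119, genes of microglia, so that their markers went against the name. Mki67 was detected in at most 2.63% of them and Hmgb2 in 30.9% to 47.4%, and whether this is free RNA or their own was not tested.

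T cells with at least 10 of the 50 genes among 4000 UMIs made up 19.8% and 20.9% with vehicle and 9.09% and 13.1% with digoxin. Before thinning these shares were 27.3% and 29.1% and 19.4% and 22.1%. No such cell was among the 182 Microglia of the 4 mice, which allows a share of up to 1.65% by counting error over the pooled cells, the spread between mice left aside. With at least 5 genes the shares in T cells were 45.1% and 42.7% with vehicle and 27.3% and 43.8% with digoxin, with overlap. Among the T cells with at least 5 genes, the mean was 29.6 and 28.5 UMIs of the 50 genes per cell with vehicle and 23.0 and 18.9 with digoxin. The medians were far lower, at 13 and 18 with vehicle and 11.5 and 10 with digoxin, so that vehicle replicate 1 and digoxin replicate 1 lay close together. The share of cells with at least 10 genes, and the UMIs in cells with at least 5 genes, were lower in both digoxin mice. The share with at least 5 genes was not. Reaching 10 genes also depends on the UMIs in a cell, so fewer cells and fewer molecules cannot be told apart here. In malignant cells the share with at least 10 genes was 30.6% and 19.9% with vehicle and 25.5% and 31.9% with digoxin.

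**Figure D3:**
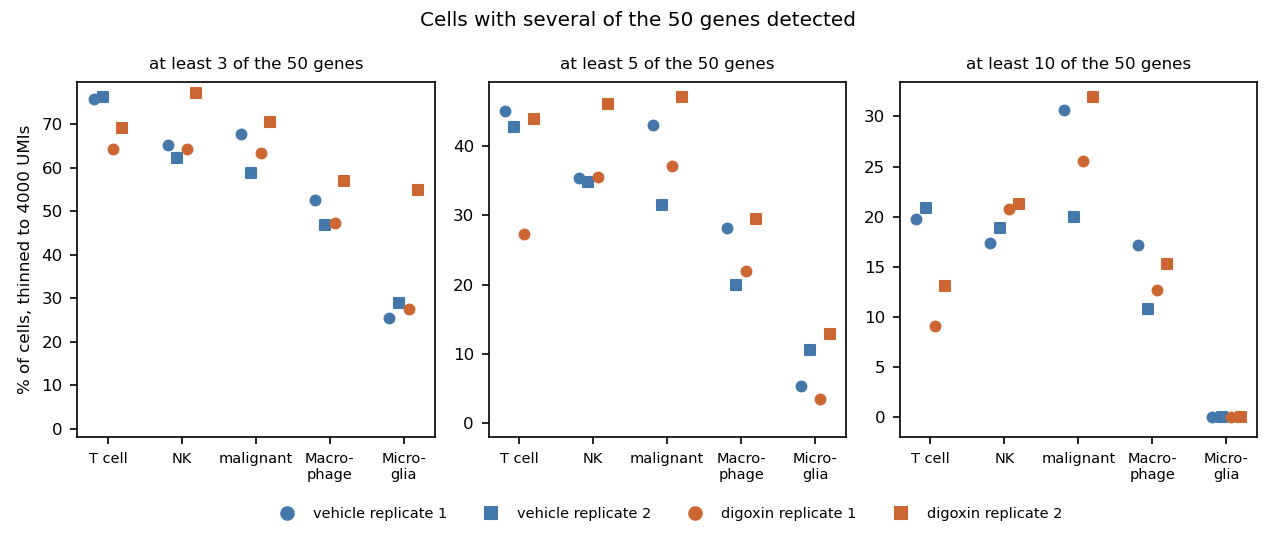
Share of cells, thinned to 4000 UMIs each, in which at least 3, 5 or 10 of the 50 genes were detected, in 5 populations, with 1 point per mouse and a separate axis in each panel. In T cells the digoxin mice lie below both vehicle mice in the panels for 3 and 10 genes, and 0 of 182 Microglia reach 10 genes.

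Across the populations the summed level of the 50 genes ranged widely, and these levels are a description, because the study formed its clusters from expression. It was highest in the macrophage group that the study named highly proliferative M2, at 10239 and 10547 CPM with vehicle and 10765 and 9726 CPM with digoxin. Natural killer (NK) cells stood at 3418 and 3467 CPM with vehicle and 3192 and 3014 CPM with digoxin. The cells named Epithelial stood at 2735 and 1651 CPM and at 1959 and 2897 CPM, and all macrophages at 2315 and 1715 CPM and at 1896 and 2143 CPM. The M2, M1, Microglia and Osteoclasts groups were low throughout, between 506 and 1115 CPM in every mouse. In the vehicle mice T cells stood above NK cells and NK cells above malignant cells, without overlap. In the digoxin mice T cells were the lowest of these 3, and NK cells and malignant cells overlapped. The vehicle order rested on Hmgb2. Without it the vehicle sums were 2742 and 2490 CPM in T cells and 2536 and 2597 CPM in NK cells. In malignant cells they were 2921 and 2066 CPM, so that these 3 populations overlapped. With digoxin these sums were 1701 and 1890 CPM in T cells, still the lowest. They were 2417 and 2261 CPM in NK cells and 2491 and 2999 CPM in malignant cells.

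**Figure D4:**
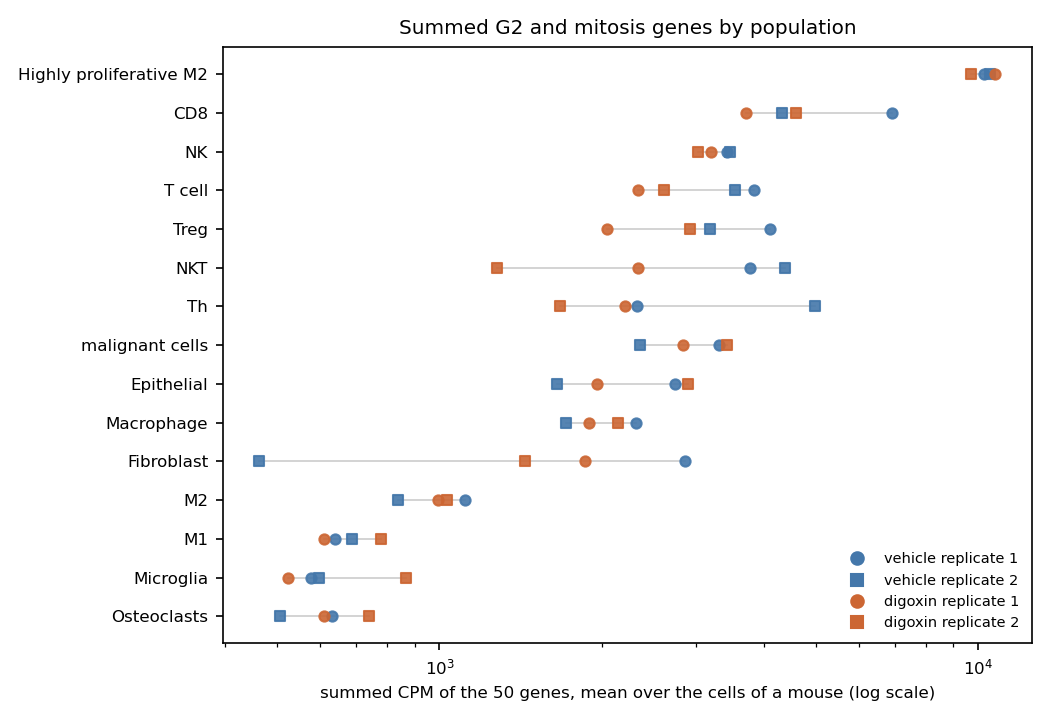
Summed CPM of the 50 genes in the 11 populations tested and in 4 T cell subsets, 1 point per mouse on a log axis. Highly proliferative M2 cells lie near 10000 in every mouse, and of the populations plotted the groups are apart, with digoxin lower, in T cells, NK cells, Treg, NKT and Th.

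NK cells are the lymphocytes closest to T cells here, and their sum was also lower in both digoxin mice. Of 47 members tested in NK cells, 32 were below 0, 4 were lower at an unadjusted p of 0.05 against 2.26% of genes, 2 were higher against 4.01%, and limma called 0 (0.0765% of genes). The count of 4 became 1 by DESeq2 and 2 by edgeR and by limma-voom. In either direction 103, 558 and 561 of 9147 genes passed that threshold by DESeq2, edgeR and limma-voom. The median of −0.11 became −0.01, −0.03 and −0.03 by these tools, and −0.20 by limma without digoxin replicate 1. Macrophage markers summed in NK cells to 540.3 and 559 CPM with vehicle and to 632 and 997 CPM with digoxin, and their part in the differences was not tested. Both digoxin mice were below both vehicle mice for 15 members, against 16.9% of genes. Cenpf stood at 67.8 and 68.8 CPM with vehicle and at 47.7 and 36.0 CPM with digoxin (−0.71, SE 0.19, limma adjusted p 0.577). Anln ran the other way, at 8.06 and 6.05 CPM and at 13.4 and 15.5 CPM (0.95, limma adjusted p 0.754).

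Shares of NK cells with at least 10 of the genes were 17.4% and 18.8% with vehicle and 20.8% and 21.3% with digoxin, higher in both digoxin mice. The mean UMIs of the 50 genes in NK cells with at least 5 of them were 32.3 and 33.9 with vehicle and 30.2 and 23.3 with digoxin, while the medians, 18 and 23.5 with vehicle and 25 and 14 with digoxin, overlapped. The T cell difference minus the NK difference had a median of −0.50 and was below 0 for 45 of 47 members. At an unadjusted p of 0.05, 12 members were lower in that comparison, against 2.36% of genes, and limma called 0.

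Macrophages as a whole had 50 members tested, with 21 below 0 and 0 called by limma. At an unadjusted p of 0.05, 0 were lower against 1.64% of genes and 0 higher against 2.4%. The direction rested on single mice. With vehicle replicate 1 left out, 5 of 50 were below 0 and 9 were higher at an unadjusted p of 0.05, against 8.47% of genes, with a median of 0.25. It turned without vehicle replicate 2, when 48 of 50 were below 0 against 59.4% of genes, 7 of them at an unadjusted p of 0.05 against 1.8%, and without digoxin replicate 2, when the median was −0.08 in place of 0.03. Their Cenpa stood at 65.2 and 67.1 CPM with vehicle and at 54.7 and 56.7 CPM with digoxin (−0.24), and Lmnb1 at 93.5 and 67.7 CPM and at 93.4 and 112 CPM (0.36). The highly proliferative M2 group made up 15.5% and 9.49% of macrophages with vehicle and 11.1% and 14.01% with digoxin. In that group 25 members were above 0 and 25 below by limma, while edgeR, DESeq2 and limma-voom gave 35, 35 and 33 below 0. By limma, 5 were lower at an unadjusted p of 0.05 against 1.47% of genes, and limma called 0. This count was 1 without vehicle replicate 2, against 1.85% of genes, and 1 without digoxin replicate 2, against 0.65%. Cdc20 stood there at 134 and 159 CPM with vehicle and at 113 and 98.5 CPM with digoxin (−0.46, SE 0.13), and Pttg1 at 181 and 209 CPM and at 151 and 150.5 CPM (−0.37). The difference in T cells minus that in highly proliferative M2 cells was below 0 for 46 of 47 members, with 26 lower at an unadjusted p of 0.05 against 2.48% of genes and 0 called by limma.

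In M1 macrophages limma called 0 members, and 2 were higher at an unadjusted p of 0.05, against 3.72% of genes. Their median was 0.04, with 0.26 without digoxin replicate 1 and −0.17 without digoxin replicate 2. Ckap2l, a spindle protein, stood there at 4.31 and 2.69 CPM with vehicle and at 5.38 and 7.48 CPM with digoxin (0.73), and Lmnb1 at 82.1 and 81.4 CPM and at 93.1 and 123 CPM (0.38). In M2 macrophages 0 members were called or passed the unadjusted threshold, against 1.08% of genes lower and 1.2% higher. With vehicle replicate 1 left out, 9 were higher at that threshold, against 7.21% of genes, and the median of 0.06 became 0.33. With vehicle replicate 2 left out, 3 were lower, against 2.18% of genes, and the median was −0.14. Lmnb1 stood there at 49.1 and 36.6 CPM and at 49.6 and 60.6 CPM (0.36), and Cenpe at 17.1 and 12.5 CPM and at 16.8 and 19.1 CPM (0.28).

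The other populations gave 0 called members with all mice in the fit. The cells named Epithelial held 2887 to 3522 CPM of 5 endothelial markers and 7.17 to 19.3 CPM of 4 epithelial markers, so that their markers went against the name. In these cells, where limma called 0.467% of genes, 36 of 49 members tested were above 0 by limma. The balance turned with the test, since edgeR, DESeq2 and limma-voom gave 31, 30 and 34 of 49 below 0. Without vehicle replicate 1, limma called 3 members (3.2% of genes), all higher, with a median of 0.58 and 18 higher at an unadjusted p of 0.05, against 6.55%. Without vehicle replicate 2, 39 of 50 were below 0 by limma against 50% of genes, with 6 at an unadjusted p of 0.05 against 3.36%, and without digoxin replicate 2 the median was −0.14 in place of 0.18. With all mice none of the members passed an unadjusted p of 0.05 by limma, against 2.18% of genes lower and 3.59% higher. Messenger RNAs of 4 mast cell markers summed there to 59.4 and 151 CPM with vehicle and to 2391 and 2395 CPM with digoxin, led by Mcpt4 at 0 and 45.9 CPM and at 1448 and 1329 CPM, and their part in the differences was not tested. Kif11 stood there at 19.5 and 9.85 CPM with vehicle and at 19.0 and 35.0 CPM with digoxin (0.85), and Ndc80 at 15.6 and 18.7 CPM and at 21.1 and 36.4 CPM (0.66).

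In fibroblasts 43 of 48 members tested were above 0 by limma on log2(CPM + 1), while 55.9% of all genes were below 0. The direction differed between tests, since 31 of 48 were below 0 by edgeR, 25 by limma-voom and 13 by DESeq2, and the mean CPM was lower with digoxin for 32 of all 50. Without vehicle replicate 1, limma called 34 members (4.69% of genes), all higher, with a median of 2.18 and 38 higher at an unadjusted p of 0.05, against 8.64%. Without vehicle replicate 2, 49 of 49 were below 0, against 63.2% of genes, with a median of −0.91 and 30 at an unadjusted p of 0.05, against 2.49%. With all mice none passed an unadjusted p of 0.05, against 1.86% of genes lower and 1.11% higher. The groups overlapped for all 50, whereas both digoxin mice were above both vehicle mice for 10.1% of genes and below them for 19.4%. Vehicle replicate 2 again had the lowest sum, at 463 CPM, against 2852 CPM in vehicle replicate 1 and 1865 and 1442 CPM in the digoxin mice. Fibroblast Mki67 stood at 118 and 3.92 CPM with vehicle and at 86.8 and 65.4 CPM with digoxin (1.66), and Ndc80 at 14.2 and 2.47 CPM and at 17.3 and 11.6 CPM (1.06). Both genes followed the sum, with vehicle replicate 2 far below the other 3 mice.

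Osteoclasts and Microglia had 20 and 8 members past the filter. Their medians of 0.10 and 0.17 turned to −0.11 without vehicle replicate 2 in Osteoclasts, and in Microglia to −0.18 without vehicle replicate 1 and −0.04 without digoxin replicate 2. Of these, 1 in Osteoclasts was higher at an unadjusted p of 0.05, where limma called 0.0128% of genes and the unadjusted background was 2.37% lower and 4.01% higher. That gene was Cks2, at 31.3 and 35.1 CPM with vehicle and 52.2 and 56.3 CPM with digoxin (0.69, SE 0.21, limma adjusted p 0.781). Smc4 stood there at 41.7 and 79.7 CPM and at 97.8 and 73.6 CPM (0.55), with overlap. In Microglia 2 were higher, against 2.9% of genes, and 0 lower, against 1.87%. Cks2 stood there at 39.3 and 14.4 CPM and at 42.6 and 86.9 CPM (1.31), and Ckap5 at 20.7 and 27.6 CPM and at 46.7 and 48.8 CPM (0.97).

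Other cell cycle genes were read from 6 lists. In T cells 41 of the other mitosis genes were tested, 38 were below 0 against 53.5% of genes, 4 were lower at an unadjusted p of 0.05 against 2.28%, 20 had both digoxin mice lower against 19%, and their median was −0.48. Aspm, a spindle pole protein, stood at 18.2 and 17.5 CPM with vehicle and at 6.33 and 6.64 CPM with digoxin (−1.34, SE 0.36, limma adjusted p 0.979). Sapcd2, which helps orient the spindle, stood at 9.98 and 10.2 CPM and at 0.711 and 2.38 CPM (−2.21). With such low digoxin levels, it may have passed the filter on low counts through the vehicle mice alone. In malignant cells 46 genes of that list were tested, 0 were below 0, and the median was 0.16.

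The S phase genes, which copy DNA before G2, were near balance in T cells. Of 37 tested there, 17 were below 0, 1 was lower at an unadjusted p of 0.05, against 2.28% of genes, 5 had both digoxin mice lower, against 19%, and the median was 0.01. Rrm2, which makes DNA building blocks, was that gene, at 97.6 and 85.4 CPM with vehicle and at 47.6 and 70.4 CPM with digoxin (−0.65). In malignant cells the S phase median was 0.16. The T cell difference minus the malignant difference had a median of −0.15 for S phase genes and of −0.59 for the other mitosis genes. At an unadjusted p of 0.05 by limma, 2 of 37 and 11 of 41 were lower, against 2.55% of genes. It was below 0 for 31 of 37 S phase genes and for 40 of 41 other mitosis genes, against 52.9% of genes. No test compared the lists with each other.

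Transcriptional control genes, 22 tested in T cells, had a median of −0.17, and 14 were below 0 against 53.5% of genes. E2f2, an activator of S phase genes, stood at 24.4 and 32.1 CPM with vehicle and at 13.4 and 16.5 CPM with digoxin (−0.87), and E2f8, a repressor, lay at −0.48. The 7 CDK brakes had a median of −0.09. Cdkn2c, an inhibitor of the kinases Cdk4 and Cdk6, stood at 38.8 and 39.7 CPM and at 27.5 and 27.8 CPM (−0.49), and Cdkn1a, which encodes p21, at 65.9 and 118.5 CPM and at 125 and 105 CPM (0.37). The growth-phase cyclins and kinases, 11 tested, had a median of 0.05, and Ccnd2, a cyclin of early growth, stood at 376 and 461 CPM and at 475 and 495 CPM (0.22), while Cdk2, the kinase of S phase entry, lay at −0.40. The subunits of the anaphase-promoting complex, 16 tested, had a median of −0.08, with Anapc4 at −0.54 and Anapc13 at 0.28. limma called 0 genes of these lists in T cells, and 1 transcriptional control gene, E2f2, was lower at an unadjusted p of 0.05 against 2.28% of genes.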

How the data were processed

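Single cells of 4 tumors were counted with 10x 3′ chemistry. Reads were aligned to mm10 with Cell Ranger 3.0.2 and cells handled with Seurat 3.0.2, per the submitters' processing notes. The authors deposited natural log values, ln(1 + UMIs per 10000 UMIs of the cell), and per-cell count totals of UMIs and genes, with their own cell names. UMIs were recovered from these values (100% whole within 0.01). Because the files hold normalized values, the main test was limma 3.58.1 (R 4.3.3) on log2(mean CPM + 1) per mouse, for genes passing edgeR's expression filter, with populations of at least 20 cells per mouse. Alternatives were edgeR 4.0.16, DESeq2 1.42.0 and limma-voom on recovered UMIs, left-out mice, other filters and pseudocounts, and removal of doublets that Scrublet (scanpy 1.11.5) marked, 1377 of 31611 cells. Cell names starting with veh3 were vehicle replicate 2, per the deposited cell tables. The scripts were tested on simulated data. In fits of 1 population, p-values set a difference against the spread between these 4 mice, and limma drew each gene's variance toward a trend over all genes. In comparisons of 2 populations the mouse was a block, so p rests on how the difference between populations varied between mice. A group left with 1 mouse gives no spread of its own.

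The members and lists were chosen with earlier results of these data known. Genes named were the 2 highest members of each role, the 5 with the smallest p in T cells and in malignant cells, the 2 in each other population and pathway list, and Mki67, Top2a, Hmgb2, Cdk1, Ccnb1 and Cdc20; others are marked as chosen after their values were seen or given for their place in a role. Promoters were searched in RefSeq windows, and 36 of 42 windows ended within the first 400 bases of a GENCODE transcript.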

Additional observations from a re-analysis of the deposited data

How the results depend on the processing

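The direction in T cells held, while calls did not. Of 344 alternative values for the genes named in T cells, 327 kept direction and side of the threshold, 13 came under it and 4 turned sign. The replicate numbers are not stated to pair the mice. Deviations of same-numbered mice correlated at −0.363 in malignant cells and 0.0608 in T cells. So few mice per group cannot show whether they were paired. With the replicate number as a block, 57 genes (0.638%) and 5 members (Ccnb2, Cenpa, Cenpf, Hmgb2 and Mki67) were called in T cells. With crossed numbers 0 genes were called in T cells and 0 in malignant cells. In malignant cells 15 members were then higher at an unadjusted p of 0.05 by limma, where 1430 of 17138 genes passed in either direction. The fit without a block had 0 members and 585 genes there. Equal weights of the subsets called 5 members, and Treg alone left 8 lower at an unadjusted p of 0.05, with Ckap5 at 0.35 and Lmnb1 at 0.14. DESeq2 called 2 members for T cells minus malignant cells. Without thinning, the difference in share was 2.21 percentage points for Top2a and −1.27 for Cdk1.

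Leaving out 1 mouse at a time gave 0 to 4 members called in T cells, 0 to 2 for T cells minus malignant cells, 0 to 3 in Epithelial, 0 to 34 in fibroblasts, 0 to 1 in highly proliferative M2 and 0 to 1 in Microglia. Without vehicle replicate 1, 34 members were called in fibroblasts (4.69% of genes), 3 in Epithelial (3.2%), and 1 each in highly proliferative M2 (2.18%) and Microglia (1.27%), where digoxin replicate 1 left out also gave 1 (0.965%). Ckap5 ran from −0.31 to 0.27 in T cells and from −0.25 to 0.0430 for T cells minus malignant cells. In malignant cells Hmgb2 ran from −0.0322 to 0.38, Mki67 from −0.0900 to 0.50, Kif11 from −0.0506 to 0.60 and Top2a from −0.0539 to 0.53, and in fibroblasts Ndc80 from −0.00561 to 2.13 and Mki67 from −0.64 to 3.96. Shares ran, in percentage points, from −8.48 to 4.18 for Top2a, −2.30 to 3.46 for Cdk1 and −1.12 to 0.365 for Cdc20 in T cells, and in malignant cells from −0.426 to 4.08 for Mki67, −0.937 to 7.28 for Top2a and −0.959 to 10.7 for at least 5 members. Fits without vehicle replicate 1 take the vehicle level from replicate 2 alone, which had 31 fibroblasts. The cause was not tested. With 110 to 183 T cells per mouse, members of few UMIs, such as Plk1, are imprecise.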

Other observations

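Populations with fewer than 20 cells in some mouse had no test. Neutrophils numbered 11, 5, 34 and 23 cells in vehicle replicates 1 and 2 and digoxin replicates 1 and 2. Their summed level of the 50 genes was 1344 and 1360 CPM with vehicle and 2822 and 2031 CPM with digoxin. Among genes with at least 10 UMIs over all mice, both digoxin mice were above both vehicle mice for 26 of 38 members, against 19.3% of genes. This count is no support, since genes can reach that limit through the digoxin mice alone. Neutrophils held 135673 and 42735 UMIs with vehicle and 502727 and 319277 with digoxin, and 10 members were above 0 in every mouse. In vehicle replicate 2 their macrophage markers summed to 13324 CPM and their neutrophil markers to 7327 CPM, while neutrophil markers were the higher in each other mouse. Dendritic cells stood at 780 and 561 CPM and at 363 and 535 CPM, where 2 of 10 members with at least 10 UMIs were lower in both digoxin mice, against 18.2% of genes. B cells stood at 942 and 2649 CPM and at 910 and 3656 CPM, with overlap. A group of 30 cells without a name was seen in vehicle replicate 2 alone and held 3947 CPM.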
